A study of Oryctolagus cuniculus with 6 samples.

Results

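Cell cycle and proliferation genes were compared between retina samples of rabbits with proliferative vitreoretinopathy (PVR) and normal rabbit retina samples. The list holds 45 genes named by function: the D and E cyclins and their kinases, replication genes of S phase, and the cyclins, kinases, checkpoint and spindle genes of mitosis. Genes were found in the count and expression tables by an exact match of their symbol, and that rule uses no measured value, although the list was drawn up with earlier results of these data known. Of the 45 genes, 42 were matched among 28788 genes in the files. CCND1, CDK2 and E2F1 were not matched and were not analysed here. Another 6 of the 42 had too few counts for edgeR's default filter, so that 36 genes were tested among 18697.

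The series holds 3 samples labelled normal and 3 samples labelled PVR, all of them polyadenylated RNA from the retina of adult rabbits. PVR was produced by puncturing the sclera, withdrawing vitreous and injecting platelet-rich plasma, a platelet concentrate of blood, into the vitreous cavity. The strain, the time between injection and collection, and whether the normal eyes were operated on in any way are not given in the sources used here. The labels do not say that the samples came from separate animals, so the p-values measure the spread between these samples. This spread was larger than counting error alone would give. The counts of each pair of samples in a group were compared by chi-square, divided by its degrees of freedom. The result was 49.0 to 185 for pairs of normal samples and 19.6 to 65.6 for pairs of PVR samples. Whether the spread lies between animals or arises in the handling of samples was not tested.

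A dividing cell copies its DNA in S phase and separates the copies in mitosis. D cyclins with CDK4 and CDK6 carry a cell out of G1, E cyclins start S phase, the MCM helicase and PCNA act at the replication fork, and cyclin B with CDK1 drives mitosis. Neurons and photoreceptors of the adult retina do not divide, whereas PVR is known for membranes on the retina that are formed by pigment epithelial, glial, fibroblast-like and immune cells, some of which divide.

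Counted reads ranged from 31904593 to 43035080 per sample. Levels are given as CPM, which are counts scaled by library size and TMM factors, or as the deposited FPKM. The FPKM are scaled by library size and gene length, without TMM factors, so the 2 scales can differ in how samples compare. Photoreceptor markers were abundant in all samples, with a summed level of 39664 to 46874 CPM in normal retina and 28270 to 38789 CPM in the PVR samples. Normal replicate 2 stood apart, since 12 lens genes took 3.14% of its counts, against 0.00164% and 0.00195% in the other normal samples and 0.0289% to 0.0320% in the PVR samples. Results that rest on this sample are given without it as well. In whole tissue, fewer cells of a type and less RNA per cell cannot be told apart.

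Most of the cell cycle genes were at low levels in the retina of both groups. In FPKM, which can be compared between genes, 18 of the 42 genes had a mean under 1 in the normal samples, 13 were between 1 and 5, and 11 were over 5. The PVR samples had 21, 11 and 10 genes in the same classes. PCNA, the sliding clamp of DNA polymerase, was highest in the normal samples at 30.3 ± 2.47 FPKM (SD, n = 3), followed by CCNA2, the S and G2 cyclin, at 28.9 ± 2.99 FPKM. The difference between these neighbours was smaller than either SD. In the PVR samples CCNA2 was highest at 34.3 FPKM and PCNA followed at 29.1 FPKM. RRM1, the large subunit of ribonucleotide reductase, had 23.9 FPKM in the normal samples, and PRC1, CDK4 and CCND2 followed at 17.9, 13.6 and 13.5 FPKM.

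The genes most closely tied to mitosis stood at the other end. CDK1, the mitotic kinase itself, had a mean of 0.133 FPKM in normal retina and 0.126 FPKM in the PVR samples. AURKB, the kinase of the chromosomal passenger complex, was lowest, with 1 count in normal replicate 3, 1 in PVR replicate 1 and 0 in the others. A count of 0 allows a true level of up to 3 counts, which was 0.0697 to 0.0940 CPM depending on the sample. Summed over the 42 genes, the level was 543 to 548 CPM in normal retina and 532 to 535 CPM in the PVR samples. The ranges did not overlap on this scale, which rests on the TMM factors. As a share of all counts, with no such factors, the genes took 0.0536%, 0.0522% and 0.0542% in normal retina and 0.0549%, 0.0552% and 0.0537% in the PVR samples, which overlapped and leaned the other way. The abundant genes weigh most in these sums.

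**Figure D1:**
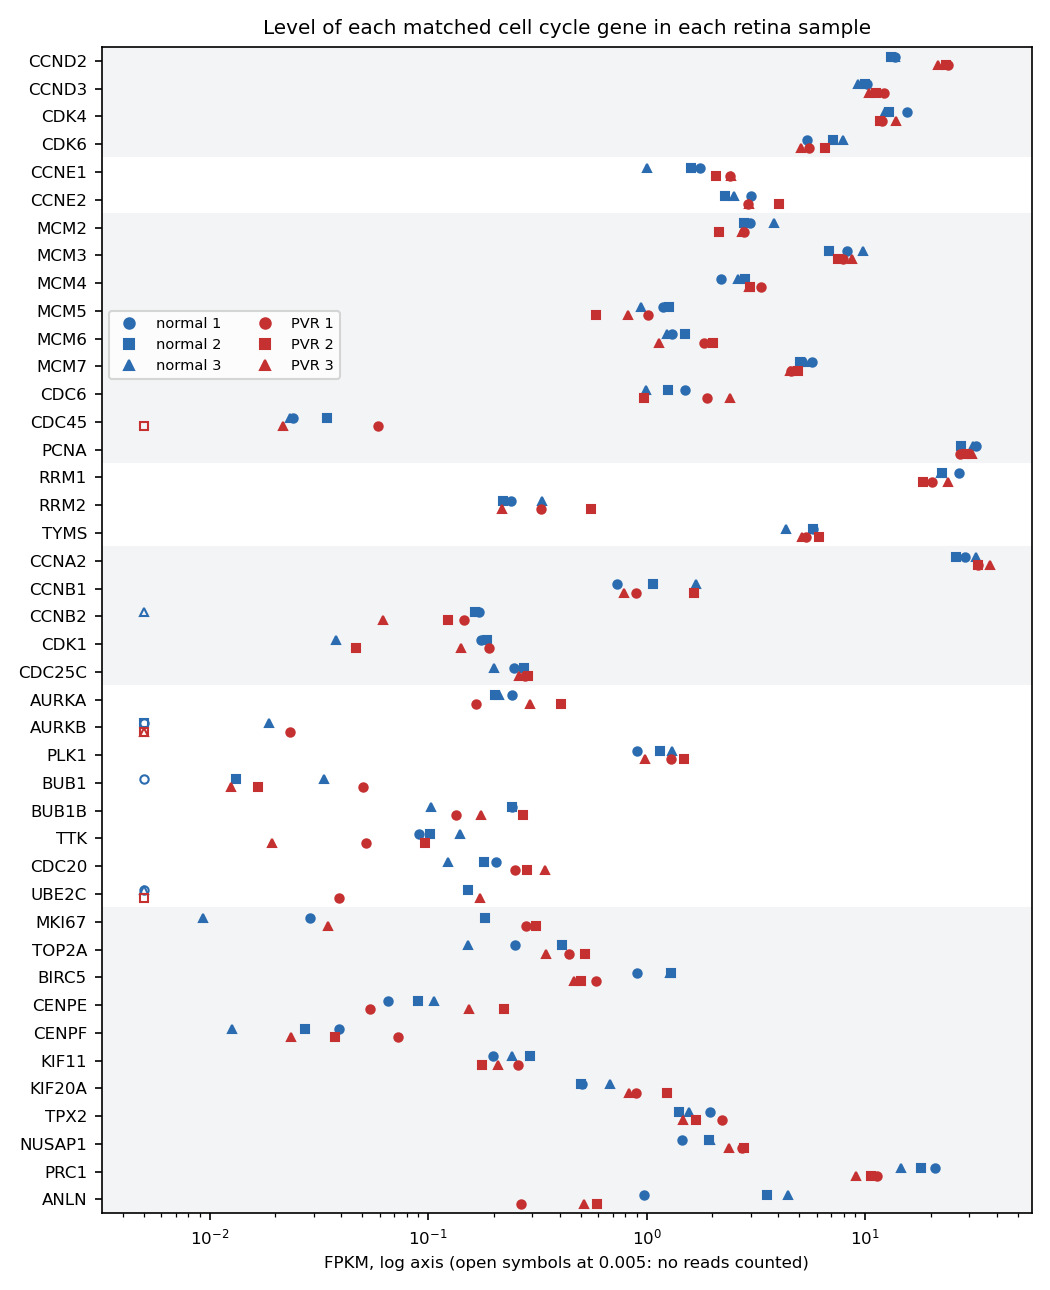
Level in FPKM (log axis) of the 42 matched cell cycle genes in each of the 3 normal (blue) and 3 PVR (red) samples, with open symbols at the left edge where no read was counted and shaded bands for the role groups. PCNA and CCNA2 lie at the high end and AURKB at the low end, and the groups separate visibly for CCND2, PRC1 and ANLN.

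The comparison of PVR with normal retina asked whether these genes differed in expression in the PVR model. CCND2 rose and PRC1 fell in PVR at an adjusted p under 0.05, by the quasi-likelihood test of edgeR, with p-values adjusted by the Benjamini-Hochberg method over all genes tested. These are 2 of 36 genes, or 5.56%, and over all tested genes 1.7% passed. In single directions, 1 member rose where 1.09% of all genes rose, and 1 fell where 0.615% of all genes fell. With a log2 fold change beyond 1 also required, 0 of the 36 remained, against 1.01% of all genes. At an unadjusted p under 0.05 there were 5 members (CCND2, PRC1, ANLN, BIRC5 and KIF20A), or 13.9%, a smaller share than the 21.2% of all genes. DESeq2 called 3 members at an adjusted p under 0.05, or 7.89% of those it tested, beside 8.75% of all genes. With a log2 fold change beyond 1, DESeq2 called 1 member, ANLN, beside 4.02% of all genes.

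The list as a whole was split in direction, with 20 log2 fold changes above 0 and 16 below. The median log2 fold change was 0.10, beside -0.01 over all genes. In each sample, the median deviation of these genes from their mean log2 CPM over all samples was also taken. It was -0.081 to 0.053 in the normal samples and -0.048 to 0.112 in the PVR samples, so the groups overlapped. In CPM, the 3 PVR samples did not overlap with the 3 normal samples for 11 members, 5 higher and 6 lower. This was 30.6%, close to the 28% of all genes that were also separated. The 95% interval lay within 1 log2 unit of 0 on both sides for 16 of the 36 members, so for the other 20 a change of that size was not excluded by these samples.

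**Figure D2:**
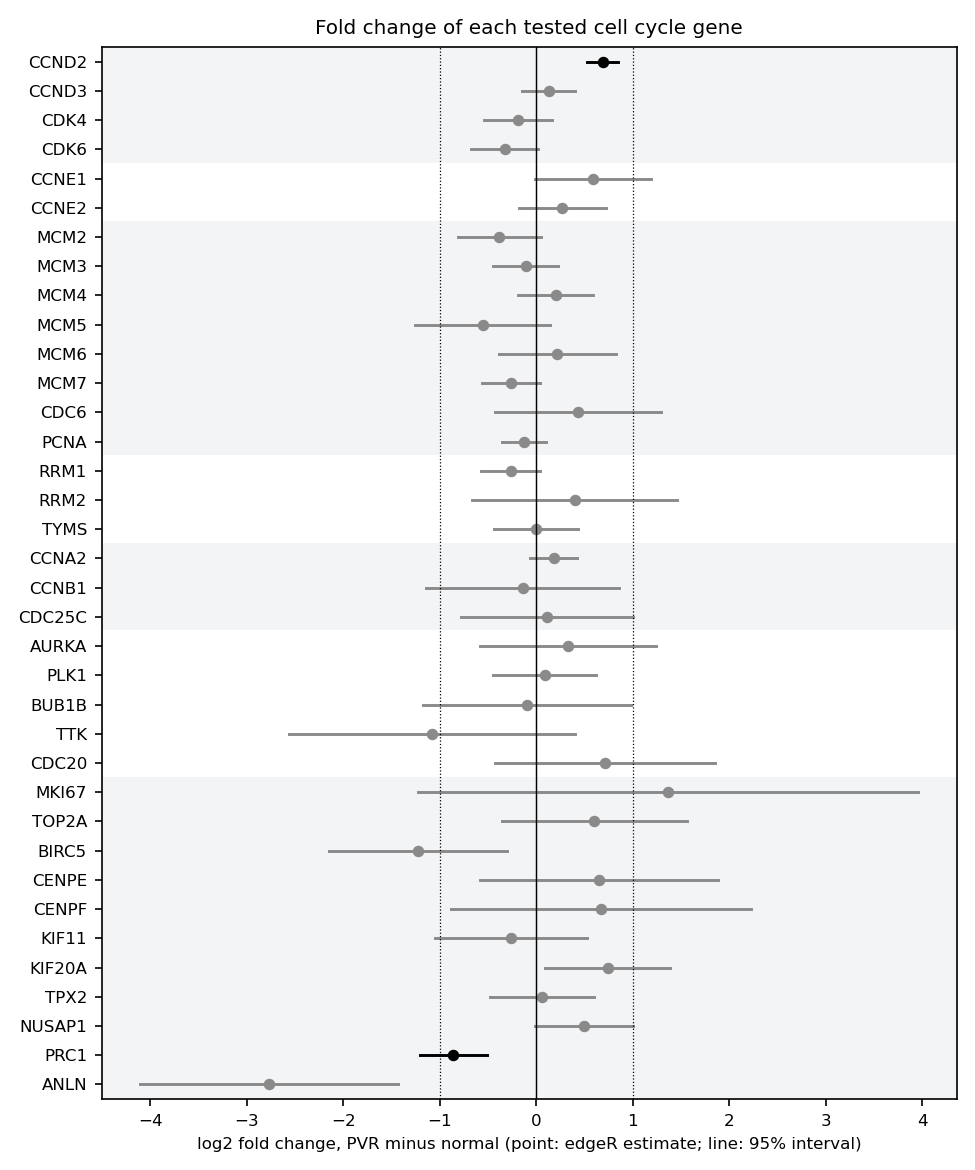
The log2 fold change (PVR minus normal) of the 36 tested genes with the 95% interval from the edgeR fit, black where the adjusted p was under 0.05 and grey otherwise, with dotted lines at log2 fold changes of -1 and 1. CCND2 lies at 0.69 and PRC1 at -0.86, while intervals of MKI67, ANLN and TTK are several log2 units wide.

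Among the G1 cyclins and their kinases, CCND2, which encodes the D cyclin that partners CDK4 and CDK6, was the one gene that rose. It had 81.1, 79.3 and 78.7 CPM in normal retina and 134, 129.8 and 122 CPM in the PVR samples. Every PVR sample lay above every normal sample, and the samples of each group were close together. The group means were 79.7 ± 1.23 CPM (SD, n = 3) and 129 ± 5.88 CPM (SD, n = 3), a ratio of 1.62. This gave a log2 fold change of 0.69 (SE 0.07, 95% interval 0.53 to 0.85), with an adjusted p of 0.00865 from edgeR's quasi-likelihood test. Per length the level went from 13.5 to 22.9 FPKM, which placed CCND2 above CDK4 and PRC1 in PVR. The adjusted p was under 0.05 in 14 of 15 alternatives and ranged from 5.93e-10 to 0.0981, the latter without PVR replicate 1, where the log2 fold change was 0.66. Without normal replicate 2 it was 0.0415.

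The other genes of this step did not pass. CCND3, a further D cyclin, had a log2 fold change of 0.13 (95% interval -0.14 to 0.40). CDK4 had 863, 746 and 700 counts in normal retina and 538, 539 and 847 in the PVR samples, a log2 fold change of -0.19 (95% interval -0.54 to 0.16). CDK6 had 2305, 3191 and 3462 counts against 1936, 2308 and 2385, a log2 fold change of -0.33 (95% interval -0.67 to 0.02, adjusted p = 0.259 by edgeR). The groups overlapped for all 3 genes, and each interval lay within 1 log2 unit of 0.

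Markers of immune cells stood higher beside CCND2 in the PVR samples. The summed level of 11 macrophage and microglia markers was 32.1 to 53.5 CPM in normal retina and 74.9 to 94.2 CPM in the PVR samples, with a log2 fold change above 0 for 11 of 11 markers and 0 of them past an adjusted p of 0.05. Fibroblast and myofibroblast markers summed to 98.5 to 120.5 CPM in normal retina and to 235, 119.5 and 349.5 CPM in the PVR samples. Mueller glia markers had overlapping sums of 2703 to 3477 CPM and 2536 to 2836 CPM, but single markers moved within the sum. GLUL and RLBP1 fell in PVR, with log2 fold changes of -1.11 and -0.89 and adjusted p of 0.0125 and 0.0294 by edgeR. GFAP was higher in every PVR sample, at 391 to 452 CPM against 58.7 to 247 CPM, with an adjusted p of 0.143 by edgeR. The part of these cells in the level of CCND2 was not tested.

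Of the genes for entry into S phase, both E cyclins had log2 fold changes above 0 and neither passed. CCNE1 had 204, 193 and 119 counts in normal retina and 227, 200 and 311 in the PVR samples. In CPM the groups did not overlap, with 4.43 ± 1.27 and 6.68 ± 0.645 CPM (SD, n = 3). The log2 fold change was 0.59 (95% interval -0.01 to 1.20), and the adjusted p of 0.243 by edgeR ranged from 0.186 to 0.498 over the alternatives. CCNE2, its paralogue, had a log2 fold change of 0.27 (95% interval -0.18 to 0.73) and overlapping groups.

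The genes of the replication fork were divided. MCM2 to MCM7 encode the 6 subunits of the ring that unwinds DNA at the fork, and a complete ring needs all of them. MCM4 and MCM6 had log2 fold changes of 0.20 and 0.22, and those of MCM2, MCM3, MCM5 and MCM7 were -0.38, -0.11, -0.55 and -0.26. MCM2 had 11.2, 10.7 and 14.0 CPM in normal retina and 9.96, 7.58 and 9.92 CPM in PVR, and MCM7 had 15.7, 14.2 and 14.3 CPM against 12, 12.8 and 12 CPM. These were the subunits for which the groups did not overlap in CPM, both with lower PVR samples, although MCM2 overlapped in FPKM. Neither passed, with adjusted p of 0.277 for MCM2 and 0.284 for MCM7 by edgeR. MCM5 had the lowest levels of the 6, at 1.13 FPKM in normal retina and 0.81 FPKM in the PVR samples.

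PCNA had 43.2, 37.8 and 40.8 CPM in normal retina and 34.7, 36.6 and 40.0 CPM in the PVR samples, so the groups overlapped. Its log2 fold change was -0.13 (SE 0.10, 95% interval -0.36 to 0.10), and the adjusted p of 0.467 by edgeR ranged from 0.324 to 0.784 over the alternatives. With 1136 to 1738 counts per sample, PCNA had one of the narrower intervals of the list, and an increase of more than 0.10 on the log2 scale lay outside it. CDC6, which loads the helicase, had a log2 fold change of 0.43 (95% interval -0.43 to 1.29). CDC45, a partner of the active helicase, had 0 to 4 counts and did not enter the default test.

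Genes that supply nucleotides were also close between the groups. RRM1 had 83.2, 71.0 and 67.2 CPM in normal retina and 59.6, 53.1 and 71.5 CPM in the PVR samples, a log2 fold change of -0.27 (95% interval -0.57 to 0.04). RRM2, the small subunit of the same reductase, is the one made chiefly in S phase, and it had 24, 23 and 34 counts against 27, 46 and 24. PVR replicate 2 alone was above the normal samples. The log2 fold change of RRM2 was 0.40 (95% interval -0.67 to 1.46), and without PVR replicate 2 it was -0.01. TYMS, thymidylate synthase, had a log2 fold change of -0.01 (95% interval -0.44 to 0.43), and its sign turned with RLE or upper-quartile factors.

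Among the cyclins of G2 and mitosis, CCNA2 was abundant and the rest were not. CCNA2 had 1422, 1358 and 1637 counts in normal retina and 1339, 1354 and 2041 in the PVR samples. Scaled for depth these were 37.3, 34.9 and 40.9 CPM against 40.9, 40.3 and 47.0 CPM, with overlapping groups and a log2 fold change of 0.18 (95% interval -0.06 to 0.42). CCNB1, the mitotic B cyclin, had 44, 67 and 104 counts against 44, 82 and 52. Its log2 fold change of -0.14 had an interval from -1.14 to 0.86 and was 0.21 without normal replicate 3 and 0.05 without PVR replicate 3. CCNB2 had 10, 10 and 0 counts against 7, 6 and 4, and CDK1 had 9, 10 and 2 against 8, 2 and 8. Neither passed the default filter, and with no filter on low counts the adjusted p by edgeR was 0.978 for CCNB2 and 0.953 for CDK1. CDC25C, a phosphatase that activates CDK1, had 20 to 28 counts in every sample.

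Mitotic kinases and checkpoint genes had few counts and none passed. TTK, the kinase that starts the spindle checkpoint, had 17, 20 and 27 counts in normal retina and 8, 15 and 4 in the PVR samples. CDC20, an activator of the anaphase-promoting complex, had 13, 12 and 8 counts against 13, 15 and 24. In CPM neither gene overlapped between the groups, and they lay on opposite sides, with log2 fold changes of -1.08 (95% interval -2.56 to 0.41) and 0.72 (95% interval -0.42 to 1.85). For TTK, normal replicate 1 at 0.4463 CPM and PVR replicate 2 at 0.4461 CPM were nearly equal. In FPKM the groups overlapped for TTK, with 0.0907 and 0.0964 in these samples. The value of TTK was -1.71 without PVR replicate 2 and -0.66 without PVR replicate 3. PLK1, which has several tasks in mitosis, was the most abundant of this group with 170 to 251 counts and a log2 fold change of 0.09 (95% interval -0.45 to 0.62). AURKA and BUB1B had log2 fold changes of 0.33 and -0.10. BUB1 had 0 to 6 counts and UBE2C, the ubiquitin-conjugating enzyme of mitotic exit, also had 0 to 6, and with AURKB they did not pass the default filter. With no filter, the adjusted p of the 6 low genes of the list was 0.812 to 0.988 by edgeR.

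MKI67, which encodes the Ki-67 protein used to mark dividing cells, had 3, 20 and 1 counts in normal retina and 24, 27 and 4 in the PVR samples. The groups overlapped, because normal replicate 2 was high and PVR replicate 3 was low. The levels were 0.206 ± 0.268 CPM (SD, n = 3) and 0.543 ± 0.392 CPM (SD, n = 3). The log2 fold change was 1.37 (SE 1.11, 95% interval -1.22 to 3.96), with an adjusted p of 0.499 by edgeR that ranged from 0.277 to 0.766 over 14 alternatives. Leaving out normal replicate 2 gave 3.31, and leaving out normal replicate 3 gave 0.85. With log2(FPKM + 1) it was 0.17, but the added 1 shrinks any difference of a gene with group means of 0.0736 and 0.209 FPKM.

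TOP2A, the topoisomerase that untangles sister chromosomes, followed a similar order of samples. It had 59, 102 and 37 counts in normal retina and 85, 103 and 90 in the PVR samples, and normal replicate 2 was again the high normal sample. For TOP2A the log2 fold change was 0.60 (95% interval -0.36 to 1.56, adjusted p = 0.426 by edgeR, 0.279 to 0.689 over the alternatives), and it was 1.06 without normal replicate 2.

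Lymphocyte markers were examined beside MKI67 after its values had been seen. Over 9 matched T and B lymphocyte markers of 11, the summed level was 2.70, 3.24 and 0.98 CPM in normal retina and 4.95, 5.80 and 1.96 CPM in the PVR samples. The 3 samples with the most MKI67 were also the 3 with the highest sums. CD3E, MS4A1 and CD79B were at 0 counts in normal replicate 3 and PVR replicate 3, where MKI67 was at 1 and 4 counts. Not all markers shared this order. CD8A had 65, 41 and 21 counts in normal retina and 51, 24 and 49 in the PVR samples, and CD247 had 11 and 9 counts in the samples where CD3E was at 0. The part of lymphocytes in these values was not tested.

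The genes of the spindle midzone and of cytokinesis held the other call. PRC1, which bundles the microtubules between the separating chromosomes, had 70.5, 62.4 and 48.5 CPM in normal retina and 36.4, 33.9 and 29.8 CPM in the PVR samples. All PVR samples lay below all normal samples, and the normal samples were further apart. The means were 60.5 ± 11.2 CPM (SD, n = 3) and 33.4 ± 3.30 CPM (SD, n = 3), a ratio of 0.552. The fitted log2 fold change was -0.86 (SE 0.15, 95% interval -1.21 to -0.51), with an adjusted p of 0.0441 from edgeR's quasi-likelihood test. This call was near the threshold and was kept in 7 of 15 alternatives, with adjusted p from 1.98e-05 with DESeq2 to 0.206 without PVR replicate 1. It was 0.128 without normal replicate 1, 0.144 without normal replicate 2, 0.108 without PVR replicate 2 and 0.0585 without PVR replicate 3, while the log2 fold change stayed between -0.93 and -0.72.

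PRC1 was abundant for a gene of mitosis, at 17.9 FPKM in the normal samples, where MKI67 had 0.0736 FPKM. The photoreceptor marker sum was likewise lower in every PVR sample, with 46584, 39664 and 46874 CPM in normal retina and 34383, 28270 and 38789 CPM in the PVR samples. Pigment epithelium markers summed to 296, 422 and 188 CPM in normal retina and 120, 102 and 144 CPM in the PVR samples. Of 8 such markers tested, 2 fell and 0 rose at an adjusted p under 0.05 by edgeR. The log2 fold change was below 0 for 6 of them and above 0 for 2. BEST1 was higher in every PVR sample, at 4.61 to 6.25 CPM against 3.31 to 3.80 CPM. The part of these cell types in the level of PRC1 was not tested.

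ANLN, or anillin, a scaffold of the contractile ring, had the lowest log2 fold change of the list but missed the threshold. It had 170, 651 and 798 counts in normal retina and 38, 86 and 100 in the PVR samples. All PVR samples were below all normal samples, and normal replicate 1 lay much nearer to PVR than the other normal samples did. The log2 fold change was -2.77 (SE 0.57, 95% interval -4.10 to -1.43), with an adjusted p of 0.0638 by edgeR's quasi-likelihood test. The adjusted p was under 0.05 in 4 of 15 alternatives, among them DESeq2 with 2.65e-07, no filter on low counts with 0.0447 and the test without normal replicate 1 with 0.0305. It was 0.174 without normal replicate 2, where the log2 fold change was -2.60, and it reached 0.271 without PVR replicate 1.

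Anillin is also a component of the septin filaments of myelin, and markers of oligodendrocytes and myelin were compared with it after its values had been seen. The summed level of the 10 markers was 249, 592 and 1211 CPM in normal retina and 145, 137 and 156 CPM in the PVR samples. The order of the normal samples was the same as for ANLN. Of 8 markers tested, 3 fell in PVR and 0 rose, with a median log2 fold change of -2.26. OLIG1 was at 0 counts in PVR replicates 2 and 3, and OLIG2 at 0 in normal replicate 1 and PVR replicates 1 and 2. Some endothelial markers had the same order of normal samples and were also lower in PVR. VWF had 228, 620 and 950 counts in normal retina and 14, 13 and 25 in the PVR samples (adjusted p = 0.0119 by edgeR), and CDH5 had 24, 41 and 103 against 0, 0 and 1. Of the 10 endothelial markers tested, these 2 fell and 0 rose, with 7 log2 fold changes below 0 and 3 above. The sum of all 10 was 604 to 659 CPM in normal retina and 703 to 725 CPM in PVR. KDR and FLT1 made up most of this sum. KDR had 347 to 452 CPM in normal retina and 447 to 472 CPM in PVR, and FLT1 had 191 to 217 and 231 to 250 CPM. The part of myelinating or endothelial cells in the level of ANLN was not tested.

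**Figure D3:**
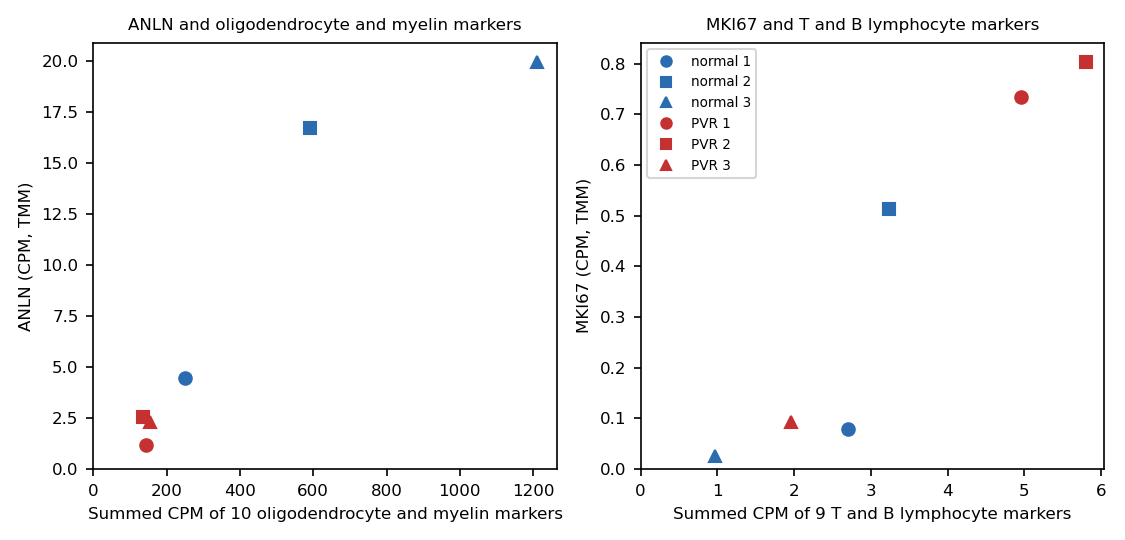
Level of ANLN against the summed level of 10 oligodendrocyte and myelin markers (left) and of MKI67 against 9 T and B lymphocyte markers (right), in CPM, one point per sample with normal in blue and PVR in red. ANLN and the myelin sum are lowest in the 3 PVR samples, and MKI67 is highest in PVR replicates 1 and 2 and normal replicate 2, as is the lymphocyte sum.

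BIRC5 and KIF20A differed in opposite directions, and neither passed after adjustment. BIRC5, the survivin subunit of the chromosomal passenger complex, had 28, 42 and 41 counts in normal retina and 15, 13 and 16 in the PVR samples. KIF20A, a kinesin of the central spindle, had 61, 63 and 84 counts against 88, 124 and 110. Neither gene overlapped between the groups. Their log2 fold changes were -1.22 (95% interval -2.15 to -0.30) and 0.74 (95% interval 0.09 to 1.39), with adjusted p of 0.148 and 0.192 by edgeR. For BIRC5 the adjusted p was 0.0876 to 0.376 over the alternatives, and it was above 0.05 in all 15.

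The remaining genes of chromosomes and the spindle did not pass. NUSAP1, which binds spindle microtubules, had 109, 151 and 150 counts in normal retina and 168, 174 and 196 in the PVR samples, with no overlap in CPM and a log2 fold change of 0.50 (95% interval -0.01 to 1.0). The centromere proteins CENPE and CENPF had log2 fold changes of 0.65 and 0.67, with intervals from -0.59 to 1.88 and from -0.88 to 2.22. TPX2, a spindle assembly factor, was at 0.06 and KIF11, the kinesin that separates spindle poles, was at -0.26.

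**Figure D4:**
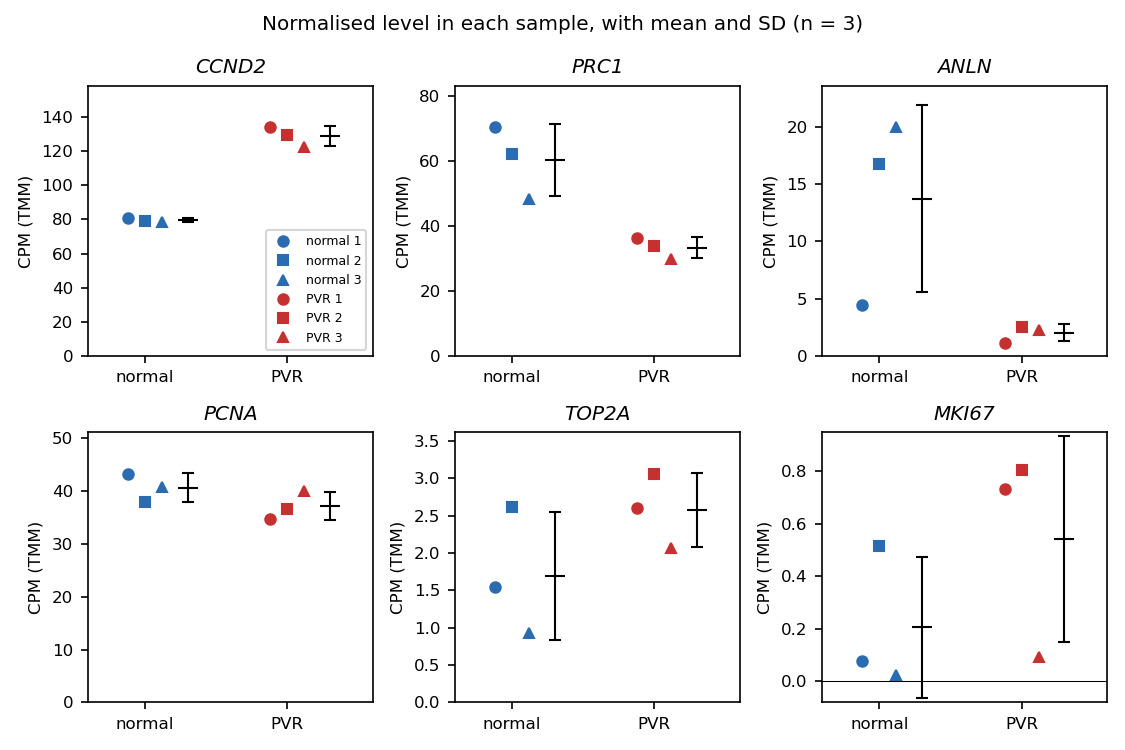
Level in CPM of CCND2, PRC1, ANLN, PCNA, TOP2A and MKI67 in each sample (points) with the group mean and SD (horizontal and vertical bars, n = 3), each panel on its own linear axis. CCND2, PRC1 and ANLN have no overlap between the groups, PCNA, TOP2A and MKI67 do, and the SD of MKI67 in the normal samples exceeds its mean of 0.206 CPM.

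The wider cell cycle was followed in a further 129 genes, of which 120 were matched and 105 tested. These were CDK inhibitors, the RB and E2F families, further replication, checkpoint and spindle genes, and the MYC family. Of the 105, 0 rose and 1 fell, or 0.952%, below the 1.7% of all genes. The gene that fell was CIT, citron kinase, which acts in cytokinesis. CIT had 68.2, 75.0 and 66.4 CPM in normal retina and 47.7, 41.7 and 50.3 CPM in the PVR samples, with no overlap. Its log2 fold change was -0.59 (SE 0.10, 95% interval -0.81 to -0.36), with an adjusted p of 0.0389 by edgeR. The adjusted p of CIT was under 0.05 in 8 of 15 alternatives and ranged from 0.000212 to 0.223. It was 0.116 without normal replicate 1, 0.142 without normal replicate 2, 0.223 without PVR replicate 1 and 0.0832 without PVR replicate 2.

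Brakes on the cell cycle did not pass either. CDKN1B, the inhibitor p27, was the abundant one at 98.8 FPKM in normal retina and 90.4 FPKM in the PVR samples, well above any gene of the list of 45, with a log2 fold change of -0.20 (95% interval -0.41 to 0.01). CDKN1A, the inhibitor p21, had 53, 201 and 64 counts against 118, 101 and 181, where normal replicate 2 was the highest sample, and a log2 fold change of 0.40 (95% interval -0.78 to 1.59). For CDKN1A this was 1.27 when normal replicate 2 was left out (adjusted p = 0.182 by edgeR, the lowest of a range up to 0.940 over the alternatives), 0.09 without normal replicate 1, 0.14 without normal replicate 3 and 0.28 without PVR replicate 3. RB1, which holds back the E2F factors, had a log2 fold change of 0.10 (95% interval -0.12 to 0.32).

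FOXM1, the transcription factor of many mitotic genes, had 9, 10 and 14 counts in normal retina and 32, 8 and 41 in the PVR samples. PVR replicates 1 and 3 were above the normal samples and PVR replicate 2 was not. For FOXM1 the log2 fold change was 1.35 (95% interval -0.10 to 2.80, adjusted p = 0.262 by edgeR, 0.183 to 0.565 over the alternatives). Among the genes with the smallest p after CIT were E2F6, a repressor of the E2F family, with a log2 fold change of -0.55 and an adjusted p of 0.087, and WEE1, which inhibits CDK1, with 0.55 and 0.119 by edgeR. DESeq2 gave these genes an adjusted p of 0.00931 and 0.0255. RACGAP1, a partner of the central spindle, had 263, 1907 and 388 counts in normal retina and 170, 126 and 287 in the PVR samples, with a log2 fold change of -2.07 that was -0.67 without normal replicate 2.

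Overlap with other genes limits some of these counts, since the strand setting of the counting is not given in the sources used here. RefSeq's mOryCun1.1 annotation, a newer assembly than the files use, served here for gene names and neighbours. In it, 7 of the 42 genes overlapped a protein-coding gene, among them ANLN with MATCAP2 and KIF20A with CDC23. MATCAP2 had a log2 fold change of 0.19, the opposite sign to ANLN. CCND2 overlapped a long noncoding RNA there, and PRC1 overlapped no gene.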

How the data were processed

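The authors sequenced RNA of 6 rabbit retina samples, 3 normal and 3 PVR, and samples were grouped by their titles. Per the labels and the paper's methods, reads were trimmed with fastp, aligned to OryCun2.0 with HISAT2 and counted per gene with HTSeq. The paper and the labels name different library kits. The raw counts were deposited by the authors without normalization, together with FPKM values that rest on the same counts. The depth was 31904593 to 43035080 counts per sample, and limits from it cover counting error only.

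Counts were analysed with edgeR 4.0.16 in R 4.3.3: the default filter on low counts, TMM factors and a quasi-likelihood test of the condition, with Benjamini-Hochberg adjustment over 18697 genes. The SE is the log2 fold change divided by the square root of F. The alternatives were DESeq2 1.42.0, RLE and upper-quartile factors, no filter, a minimum of 10 counts in every sample, the replicate number as a block, leaving out each sample in turn, and limma 3.58.1 (voom on counts, or log2 of FPKM with 1 or 0.1 added). The edgeR test with and without the replicate block, DESeq2, limma-voom and log2(FPKM + 0.1) were run on simulated counts. The other alternatives were not. Figures were made with matplotlib 3.10.9.

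The genes, lists and rules were chosen with earlier results of these data known. Every listed gene may be named. Values by sample are given for genes with an adjusted p under 0.05, for MKI67, TOP2A and PCNA, and for up to 3 further genes with the smallest p of each role group. The further cell cycle genes named are those past the threshold, some with the smallest p, and CDKN1A, CDKN1B, RB1 and FOXM1. CCND3, CDC25C, NUSAP1 and the genes under the default filter were given with values after these had been seen.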

Additional observations from a re-analysis of the deposited data

How the results depend on the processing

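Of the cell cycle genes, 2 had an adjusted p under 0.05 (CCND2 and PRC1). The number was 1 with limma-voom, log2(FPKM + 1) and log2(FPKM + 0.1), where CCND2 was kept, and 3 with DESeq2, no filter and the replicate block, where ANLN was added. With single samples left out it was 0 to 2, with 0 without PVR replicate 1, where 22 genes passed in all. With a log2 fold change beyond 1 also required, the number was 0, and it was 1 (ANLN) with DESeq2, no filter and the replicate block, and 0 to 1 with samples left out. The median log2 fold change of 0.10 was 0.0052 to 0.13 with samples left out, the lowest without PVR replicate 2. Of the further cell cycle genes, 1 passed, against 5 with DESeq2 (4.39%, where 8.75% of all genes passed), 0 with both FPKM scales and the replicate block, and 0 to 1 with samples left out. Over all genes, 318 passed, and 1755 with DESeq2. Fits with a sample left out have fewer samples, and for the other changes the cause was not tested.

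Signs turned for genes with log2 fold changes near 0 and also for RRM2, which had 0.40 in the main fit. TYMS (-0.01) was 0.0016 with RLE factors, 0.027 with upper-quartile factors, 0.0054 with at least 10 counts in every sample, 0.0051 with limma-voom, 0.064 and 0.076 with log2(FPKM + 1) and log2(FPKM + 0.1), and 0.0073 with the replicate block. BUB1B (-0.10) was 0.0027 with log2(FPKM + 0.1). With single samples left out, MCM3 ranged from -0.21 to 0.013, RRM2 from -0.0093 to 0.66, TYMS from -0.14 to 0.083, CCNB1 from -0.52 to 0.21, CDC25C from -0.011 to 0.24, PLK1 from -0.041 to 0.23, BUB1B from -0.41 to 0.11 and TPX2 from -0.12 to 0.21.

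The labels do not say whether equal replicate numbers pair the samples. Deviations of same-numbered samples correlated across genes with r of -0.013, 0.073 and 0.042, against -0.083 to 0.043 for unequal numbers. None was over 0.1, and not every sample correlated best with its own number. With 3 samples per group, these values cannot decide the pairing. In the paired fit with a replicate block, 92 genes passed in all, and the adjusted p by edgeR was 0.0394 for CCND2, 0.042 for PRC1, 0.0373 for ANLN and 0.105 for CIT. Depth limited the genes under about 30 counts, of which AURKB, BUB1, UBE2C, CDC45, CCNB2 and CDK1 entered the test only with no filter on low counts and, for CCNB2 and CDK1, with DESeq2.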
